A study of Mus musculus with 4 samples.

Results

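The genes described here encode the TAM receptors (Tyro3, Axl and Mertk, a family of receptor tyrosine kinases), their ligands Gas6 and Pros1, and Mfge8, a separate bridging protein. They were taken by gene symbol, with every probe set that the platform annotation gives 1 symbol, which gave 6 genes and 8 probe sets out of 12393 genes and 20380 such probe sets on the array. Mertk, Gas6, Pros1 and Mfge8 had a single probe set each, and Axl and Tyro3 had 2 each. RNA came from tumour-associated macrophages sorted by flow cytometry from gastrointestinal stromal tumours (GIST, sarcomas that arise in the gut wall) of GIST mice that drank imatinib at 600 mg/L for 2 weeks or received vehicle. Imatinib inhibits the kinases Kit, Pdgfr, Abl and Csf1r. Both groups were the same GIST mouse model, whose allele, strain and age are not given in the labels, and cells of 8 mice per group were pooled. The 2 imatinib and 2 vehicle arrays are called duplicates of a pool in the design text and biological replicates in the sample titles, so all p-values measure only how far arrays of a group differ, possibly for technical reasons.

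Dying cells expose the lipid phosphatidylserine on their surface, and macrophages clear them by recognising it. Gas6 and Pros1 bind phosphatidylserine through an amino-terminal domain that is carboxylated in a vitamin K dependent step, and bind the TAM receptors through their carboxy-terminal part. Gas6 is a ligand of Tyro3, Axl and Mertk, whereas Pros1, the anticoagulant protein S, acts through Tyro3 and Mertk. Mfge8 bridges phosphatidylserine to integrins containing the alpha-v chain instead. In mice Mertk is widely used as a marker of mature tissue macrophages and is their main TAM receptor for engulfment, while Axl is known for its induction by inflammatory signals.

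The sequences upstream of the 3 genes that passed the test in the comparison below are shown first, because Mertk and Gas6 moved one way and Mfge8 the other. Each is the 250 bases before the annotated transcription start (RefSeq, build GRCm38.p6), 5′ to 3′ on the strand of the gene, and capitals mark every match to any of 8 searched motifs on either strand. The windows lie at chr2:128698665-128698914 on the plus strand for Mertk, chr8:13494536-13494785 on the minus strand for Gas6 and chr7:79149061-79149310 on the minus strand for Mfge8.
Mertk: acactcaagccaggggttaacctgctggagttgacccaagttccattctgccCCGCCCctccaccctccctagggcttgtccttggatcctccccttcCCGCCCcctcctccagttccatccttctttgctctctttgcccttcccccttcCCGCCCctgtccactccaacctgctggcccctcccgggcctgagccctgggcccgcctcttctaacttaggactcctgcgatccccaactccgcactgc
Gas6: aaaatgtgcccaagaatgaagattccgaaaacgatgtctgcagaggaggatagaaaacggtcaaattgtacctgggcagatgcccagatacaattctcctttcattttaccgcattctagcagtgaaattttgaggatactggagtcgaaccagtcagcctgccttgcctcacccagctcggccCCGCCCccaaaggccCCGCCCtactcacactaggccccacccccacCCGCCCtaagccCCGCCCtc
Mfge8: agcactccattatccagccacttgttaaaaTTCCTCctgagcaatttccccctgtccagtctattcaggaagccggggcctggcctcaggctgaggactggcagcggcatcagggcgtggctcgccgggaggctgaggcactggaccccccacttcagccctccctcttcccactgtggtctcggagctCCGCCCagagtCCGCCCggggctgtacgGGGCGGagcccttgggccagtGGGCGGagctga

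The motifs were the GC box (GGGCGG), the CCAAT box (CCAAT), the TATA box (TATAAA), the nuclear receptor half-site (AGGTCA), the PU.1 core (GAGGAA), the AP-1 site (TGANTCA), the C/EBP site (TTGCNNAA) and the STAT site (TTCNNNGAA). The Mertk window held 3 GC boxes and none of the other motifs. The Gas6 window held 4 GC boxes, and the Mfge8 window held 4 GC boxes and 1 PU.1 core. All 6 member genes had an upstream window in the RefSeq table, and each held at least 1 GC box, against 32.7% of 32851 annotated windows of the same length. Their GC content ranged between 54.8% for Gas6 and 73.2% for Tyro3, against a median of 52.4% over all windows, and GC-rich windows hold GC boxes more often. The PU.1 core was present in 23.3% of all windows. These matches describe letters in the windows only.

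The probe sets measured each transcript as a hybridisation signal on a linear scale, which the authors had scaled to the same trimmed mean on every array. The median signal over probe sets other than controls was 121.5 and 132.9 on the imatinib arrays and 151.5 and 140.4 on the vehicle arrays. Pearson's r over those probe sets (log2 scale) was 0.984 between the imatinib arrays, 0.981 between the vehicle arrays and 0.968 to 0.972 between groups. RNA quality was read from the Gapdh controls as 3′ over 5′ signal, which was 2.34 and 2.09 on the imatinib arrays and 2.91 and 2.76 on the vehicle arrays, and the part of this difference in the results below was not tested. The sorted cells carried macrophage markers at high signal in both groups, with Csf1r at 30280 ± 1560 with imatinib and 27880 ± 1100 with vehicle (SD, n = 2). Fewer cells of a type and less RNA per cell cannot be told apart in such pooled material.

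Of the 6 member genes, 5 had a probe set above the signal filter (about 79.8) and were tested with limma among 8145 genes. Mertk and Gas6 were higher with imatinib, Mfge8 was lower, and Axl and Pros1 did not pass a Benjamini-Hochberg adjusted p of 0.05. In the same fit 15.5% of all tested genes passed, 6.8% as higher and 8.73% as lower. The receptors, the ligands and Mfge8 are described in turn, with all differences given as imatinib minus vehicle on the scale of log2(signal + 32).

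**Figure D1:**
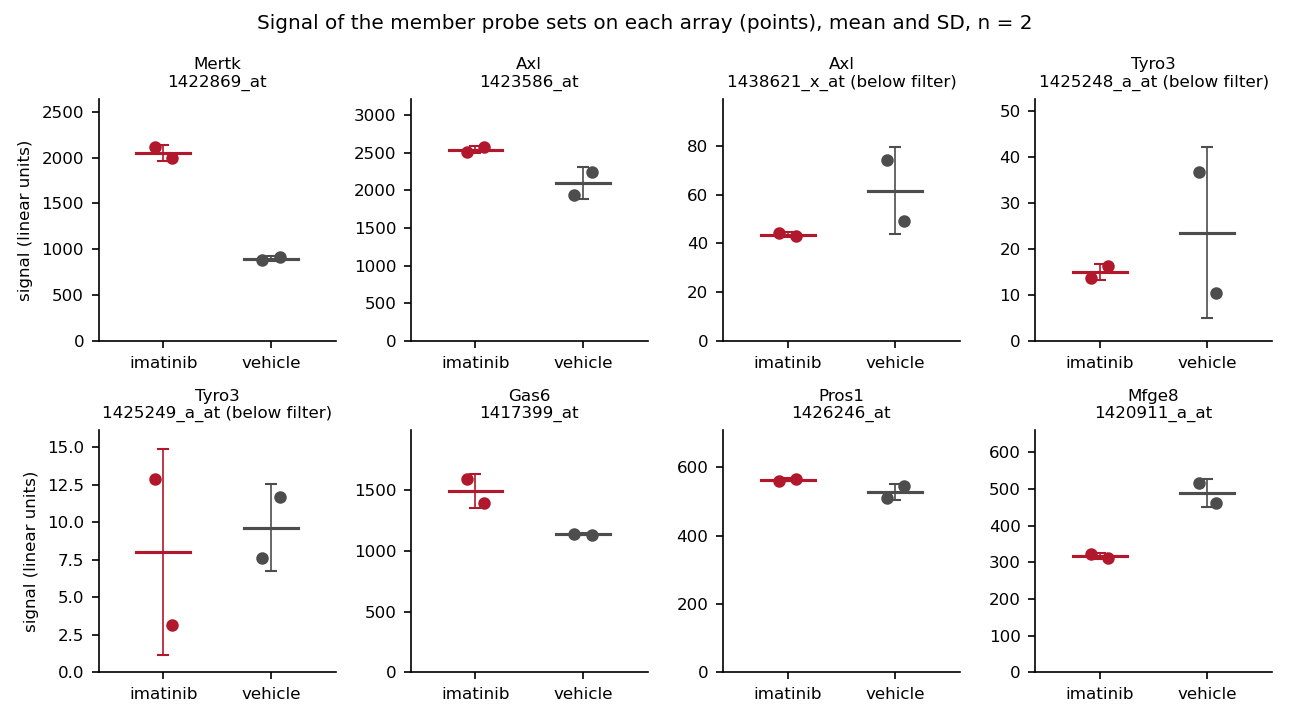
Signal in linear units (vertical axis, from 0) of the 8 member probe sets on the 2 imatinib arrays (left in each panel) and the 2 vehicle arrays (right). Points are arrays, horizontal lines are group means and bars are SD. Mertk shows the widest gap between groups, and the Tyro3 probe sets and the second Axl probe set stay below a signal of 80.

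Mertk, the receptor through which macrophages take up apoptotic cells, had signals of 2113 and 1991 on the imatinib arrays and 880.7 and 916.7 on the vehicle arrays (probe set 1422869_at). Both imatinib arrays lay far above both vehicle arrays, and arrays of a group differed little. The means were 2052 ± 86.5 with imatinib and 898.7 ± 25.4 with vehicle (SD, n = 2). The log2 difference was 1.16 ± 0.09 (SE), with a 95% interval of 0.95 to 1.37, which is 2.24-fold (limma adjusted p = 1.11e-05). Only 27 of the 8145 tested genes had a larger increase.

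Markers of macrophage identity were higher on the same arrays, so Mertk was also set against them. Of 15 identity genes, a list from which Mertk was left out, 10 were higher (66.7%, against 6.8% higher over all genes). The other 5 did not pass, and the median log2 difference was 0.39. The differences of these 15 genes ran between -0.05 for the protease gene Ctss and 0.97 for the integrin gene Itgam. Itgam was dim, with signals of 157.1 and 201.7 on the imatinib arrays and 88.32 and 64.27 on the vehicle arrays. Its vehicle mean of 76.29 lay below the filter, so it was tested through the imatinib arrays only and its call is not read as a result. The count of 10, the median and the rescaling below include it. Next to it stood Lyz2 at 0.86. The 95% interval of Itgam, 0.43 to 1.51, covered the value of Mertk. With a pseudocount of 1 Itgam stood at 1.23 and Mertk at 1.19, so their order depends on the pseudocount. When the mean log2 signal of the 15 genes was set equal on the 4 arrays (the macrophage-identity scale), which lowers every difference by 0.43, Mertk stayed higher, with a log2 difference of 0.74 ± 0.11 (SE, limma adjusted p = 0.000295). On that scale 1.39% of the tested genes were higher and 57.5% lower. The call for Mertk held under all 15 alternatives tried, with log2 differences between 0.74 and 1.32.

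Axl, the receptor with the highest affinity for Gas6, was read by 2 probe sets, of which neither passed. The brighter one, 1423586_at, gave 2504 and 2572 on the imatinib arrays and 1942 and 2243 on the vehicle arrays. The groups did not overlap, but the vehicle arrays differed from each other by more than the imatinib arrays did. Its log2 difference was 0.28 ± 0.09 (SE, 95% interval 0.07 to 0.49), and it missed the threshold (limma adjusted p = 0.0731). With equal array medians, where 12.9% of genes were higher, it passed (0.44, adjusted p = 0.0286), as it did without vehicle replicate 2 (0.38, adjusted p = 0.037). It was -0.15 on the macrophage-identity scale (adjusted p = 0.252).

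The second Axl probe set, 1438621_x_at, belongs to a design type that may also bind other transcripts and lay below the signal filter. It gave 44.32 and 42.96 on the imatinib arrays and 74.28 and 49.05 on the vehicle arrays. In the fit of probe sets without a filter its log2 difference was -0.30 ± 0.27 (SE, 95% interval -0.96 to 0.37, limma adjusted p = 0.646). That interval includes both 0 and the 0.28 of the brighter probe set. The mean of both probe sets, which gives the dim one equal weight, was -0.01 on the log2 scale.

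Tyro3, the TAM receptor best known from the nervous system, had dim signals. Probe set 1425248_a_at gave 13.68 and 16.21 on the imatinib arrays and 36.69 and 10.32 on the vehicle arrays, where the 2 vehicle arrays enclosed both imatinib arrays. Probe set 1425249_a_at gave 12.9 and 3.15 with imatinib and 7.59 and 11.71 with vehicle, and the groups overlapped again. Of all probe sets other than controls, 15.3% had a mean as low as the first and 7% as low as the second. Without a filter the brighter probe set had a log2 difference of -0.20 ± 0.28 (SE, 95% interval -0.87 to 0.47, limma adjusted p = 0.759), which was 0.15 without vehicle replicate 1. No difference in Tyro3 was detectable at these signals.

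Gas6, the ligand shared by the 3 receptors, had signals of 1593 and 1391 on the imatinib arrays and 1142 and 1130 on the vehicle arrays (probe set 1417399_at). Both imatinib arrays were above both vehicle arrays, and they differed from each other by more than the vehicle arrays did. The means were 1492 ± 143 with imatinib and 1136 ± 8.65 with vehicle (SD, n = 2), and the log2 difference was 0.38 ± 0.10 (SE, 95% interval 0.15 to 0.61, 1.30-fold, limma adjusted p = 0.0283). The call was lost without imatinib replicate 1 (0.28, adjusted p = 0.213) and without vehicle replicate 1 or 2 (0.39 and 0.37, adjusted p = 0.0764 and 0.0782). On the macrophage-identity scale the difference was -0.05 (adjusted p = 0.712), and Gas6 exceeded 7 of the 15 identity genes on the deposited scale.

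Pros1, the second TAM ligand, was nearly level, with 560.5 and 565.7 on the imatinib arrays and 509.5 and 543.9 on the vehicle arrays (probe set 1426246_at). Both imatinib arrays were slightly above both vehicle arrays, as one group lay wholly on one side of the other for 55.9% of all tested genes. The log2 difference was 0.09 ± 0.12 (SE, 95% interval -0.18 to 0.36, limma adjusted p = 0.681), so a change of up to 1.28-fold upward or to 0.88-fold lies within the interval. On the macrophage-identity scale it was -0.33 and passed as lower (adjusted p = 0.0468), as 57.5% of all genes did.

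Mfge8 gave 324 and 311.4 on the imatinib arrays and 516.3 and 461.8 on the vehicle arrays (probe set 1420911_a_at). The groups were well apart, and it was the only member with lower signals on both imatinib arrays that lay above the filter. The means were 317.7 ± 8.94 with imatinib and 489.1 ± 38.6 with vehicle (SD, n = 2). The log2 difference was -0.57 ± 0.14 (SE, 95% interval -0.88 to -0.27, 0.67-fold, limma adjusted p = 0.0172). Its difference lay below that of each of the 15 identity genes, and on the macrophage-identity scale it was -1.0 (adjusted p = 0.000241). The call was lost with array medians set equal (-0.41, adjusted p = 0.0692), without imatinib replicate 1 (-0.60, adjusted p = 0.0555), without imatinib replicate 2 (-0.55, adjusted p = 0.0644) and without vehicle replicate 1 (-0.50, adjusted p = 0.0978).

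**Figure D2:**
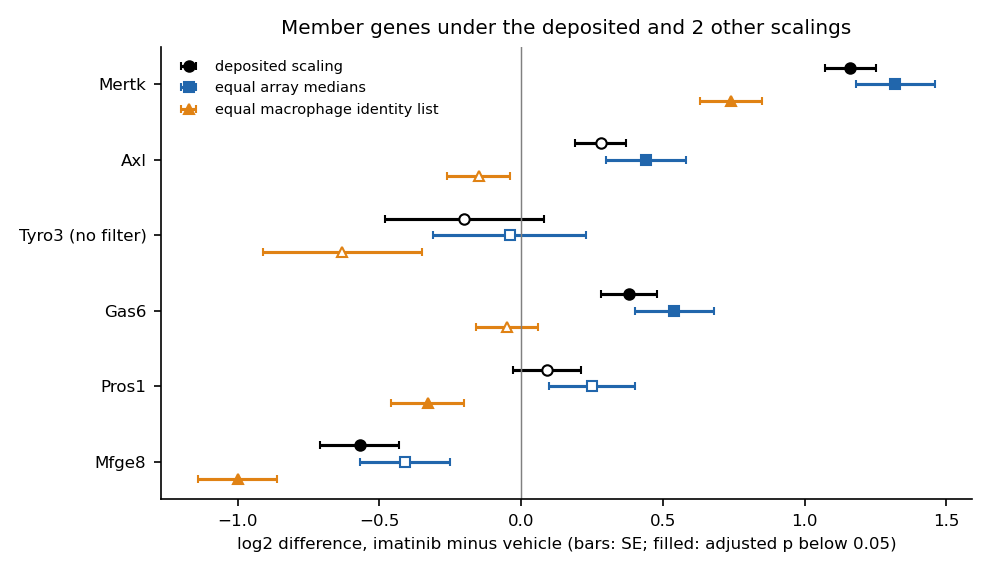
Log2 difference, imatinib minus vehicle (horizontal axis), of each member gene under the deposited scaling, with array medians set equal and with the mean of 15 macrophage identity genes set equal. Bars are SE, and filled symbols have an adjusted p below 0.05. Mertk lies above 0.7 under all 3 scalings and Mfge8 below -0.4, whereas Axl, Gas6 and Pros1 lie on different sides of 0.

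The members were also compared with each other within arrays. The change of Mertk exceeded that of Axl by 0.88, that of Gas6 by 0.78, that of Pros1 by 1.07 and that of Mfge8 by 1.74 on the log2 scale. With 2 arrays per group a two-sided exact permutation test cannot go below p = 0.333, which is what these 4 differences gave (0.37 after Benjamini-Hochberg adjustment over the 10 pairs). The 95% interval of Mertk (0.95 to 1.37) lay above the upper end of the intervals of Axl (0.49), Gas6 (0.61), Pros1 (0.36) and Mfge8 (-0.27). The changes of Axl and Gas6 lay close together (Axl minus Gas6 -0.10, exact permutation p = 0.667).

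Genes with the array pattern nearest to each tested member were found by the distance between log2 values of the 4 arrays, centred per gene. With so few arrays many genes lie close to any pattern. Nearest to Mertk were Ccrl2, an atypical receptor that binds chemerin (distance 0.048, log2 difference 1.18), the kinase gene Stk17b (0.059 and 1.17) and Clec10a, a galactose-binding lectin of macrophages (0.090 and 1.25), and 20 genes lay within a distance of 0.2. For Gas6, 583 genes lay within that distance, led by Abhd15, the interferon-inducible gene Gbp3 and the kinase gene Snrk. For Mfge8 there were 197, led by the glyoxalase gene Glo1, Med24 and Cdc42ep4. For Axl there were 907, led by Rab5if, Rpia and Nbr1, and for Pros1 1868, led by Slc30a7, Gnai2 and Eif4e3.

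Several other receptors for phosphatidylserine or apoptotic cells were higher with imatinib as well. Of 22 listed, 19 were on the array and 13 above the filter. Of these 13, 9 were higher (69.2%, against 6.8% higher over all genes) and the other 4 did not pass. The share was close to that of the macrophage identity list (66.7% higher), and Cd14 is in both lists. The list's median log2 difference was 0.56, against -0.02 over all tested genes, and 0.13 on the macrophage-identity scale, where 5 were higher and 3 lower. The largest increases were in Cd93, a lectin-like surface receptor linked to the removal of apoptotic cells, with 2263 and 2276 on the imatinib arrays and 939.2 and 895.4 on the vehicle arrays (1.28 ± 0.09, SE, limma adjusted p = 4.34e-06). A dimmer Cd93 probe set had a smaller gap in the same direction, with 171.3 and 202.2 with imatinib and 147.9 and 128.9 with vehicle. Cd300a, an inhibitory receptor for phosphatidylserine (0.97), and the scavenger receptor genes Scarb1 (0.94) and Msr1 (0.73) followed, and each of these 4 was also higher on the macrophage-identity scale. Among the integrin chains through which Mfge8 is recognised, Itgb5 was higher (0.34, or -0.09 on the macrophage-identity scale), Itgav had a log2 difference of 0.03 (adjusted p = 0.85) and Itgb3 stayed at signals of 29.59 or lower.

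Other opsonins and proposed ligands included 1 higher and 1 lower gene, and each of these calls was lost under another scaling. Of 13 on the array, 7 were tested and 5 did not pass. The share passing was 28.6%, against 15.5% over all genes. The list median was 0.08 (-0.01 after quantile normalization and -0.35 on the macrophage-identity scale). The complement gene C1qc, whose product coats dying cells, was 1.19-fold higher with imatinib (log2 difference 0.26, or -0.17 on the macrophage-identity scale), and did not pass after quantile normalization (0.09, adjusted p = 0.297). Lgals3, a galectin proposed as a ligand of Mertk, was lower, with 7992 and 7627 on the imatinib arrays and 9521 and 9905 on the vehicle arrays (-0.31 ± 0.07, SE, limma adjusted p = 0.0144). With array medians set equal it was -0.15 and did not pass (adjusted p = 0.489). The proposed TAM ligands Tub and Tulp1 had signals below the filter.

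Of 15 tested genes of the engulfment machinery, 3 were higher and the other 12 did not pass (list median 0.18, and -0.25 on the macrophage-identity scale). The share passing was 20%, all as higher, against 15.5% passing and 6.8% higher over all genes. The GTPase genes Rac2 (0.53) and Rhog (0.40) and the lipid exporter gene Abca1 (0.44), whose product removes cholesterol taken up with dying cells, were higher. On the macrophage-identity scale these 3 were at 0.10, -0.02 and 0.01 and did not pass.

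Nuclear receptors are known to drive Mertk in mouse macrophages that engulf dying cells, among them the oxysterol receptors and their partner Rxra. Of 6 tested members of this list, only the immediate early gene Nr4a1 passed, with 6867 and 6700 on the imatinib arrays and 3774 and 3784 on the vehicle arrays (0.84 ± 0.07, SE, limma adjusted p = 2.28e-05). That is 16.7% of the list, against 15.5% passing and 6.8% higher over all genes. The list's median was 0.15, or -0.28 on the macrophage-identity scale. The oxysterol receptor gene Nr1h3 gave 108.4 and 108.8 with imatinib and 143.4 and 125.7 with vehicle (-0.24 ± 0.23, SE, limma adjusted p = 0.535). Pparg (-0.33, adjusted p = 0.175) and Rxra (0.24, adjusted p = 0.368) did not pass either.

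In mouse dendritic cells the TAM receptors act with the type I interferon receptor to induce the cytokine signalling inhibitors Socs1 and Socs3. Of 11 tested genes of TAM signalling, the interferon receptor gene Ifnar2 (0.42) and Socs3 (0.28) were higher and the other 9 did not pass. The share passing was 18.2%, against 15.5% passing and 6.8% higher over all genes. The list median was 0.16, or -0.27 on the macrophage-identity scale. Ifnar2 and Socs3 were at -0.01 and -0.15 on that scale and did not pass, nor did Socs3 after quantile normalization (0.11, adjusted p = 0.237). The Socs3 call came from its brightest probe set, of the type that may also bind other transcripts. A dimmer Socs3 probe set of that type gave 4637 and 5150 with imatinib and 5267 and 4539 with vehicle, and the groups overlapped. The dimmest gave 1775 and 1910 with imatinib and 1533 and 1519 with vehicle, so it was higher on both imatinib arrays. Ifnar1 had a log2 difference of 0.17 (adjusted p = 0.389), and Socs1 was below the filter.

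TAM receptors are cut from the surface by metalloproteases, Mertk chiefly by Adam17. Of 4 tested genes of this list 2 were lower (50%, against 8.73% lower over all genes) and 2 did not pass. The median was -0.31. On the macrophage-identity scale, where 57.5% of all genes were lower, it was -0.74 and 3 were lower. Timp3, an inhibitor of Adam17 that stromal cells express, gave 226.3 and 322.7 on the imatinib arrays and 718.6 and 700.1 on the vehicle arrays (-1.29 ± 0.16, SE, limma adjusted p = 0.000284). Adam10 was lower by its brightest probe set (-0.49), with array medians set equal -0.33 and not passing (adjusted p = 0.105). Its dimmer probe sets did not show the same. The brighter of these gave 291.2 and 380.5 with imatinib and 377.4 and 381.6 with vehicle, and the groups overlapped. The dimmest gave 99.16 and 106.5 with imatinib and 67.79 and 93.69 with vehicle, so it was higher on both imatinib arrays. Adam17 itself had a log2 difference of 0.17 ± 0.10 (SE, limma adjusted p = 0.316) by its brightest probe set, where the groups overlapped. Both dimmer Adam17 probe sets were higher on both imatinib arrays. The brighter of these gave 1160 and 1430 with imatinib and 995.9 and 1075 with vehicle. The dimmest gave 306 and 336.1 with imatinib and 274.3 and 289.5 with vehicle.

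Carboxylation of Gas6 and Pros1 depends on the vitamin K cycle. Of 3 tested genes, Vkorc1, the reductase that regenerates vitamin K, was higher with 1484 and 1343 on the imatinib arrays and 1043 and 1085 on the vehicle arrays (0.40 ± 0.10, SE, limma adjusted p = 0.0208), or -0.03 on the macrophage-identity scale. The quinone reductase gene Nqo1 gave 70.84 and 85.28 on the imatinib arrays and 248.1 and 208.1 on the vehicle arrays (-1.24). Its imatinib mean of 78.06 lay below the filter, so it was tested through the vehicle arrays only. Its call is therefore not read as a result. The carboxylase gene Ggcx lay below the filter. Of 5 tested genes that set phosphatidylserine exposure, the scramblase-family gene Plscr1 (-1.23) and the flippase gene Atp11a (-0.63) were lower. That is 40%, against 8.73% lower over all genes. The other 3 did not pass, and the list median was -0.25, or -0.67 on the macrophage-identity scale. With array medians set equal Atp11a was -0.47 and did not pass (adjusted p = 0.0568).

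**Figure D3:**
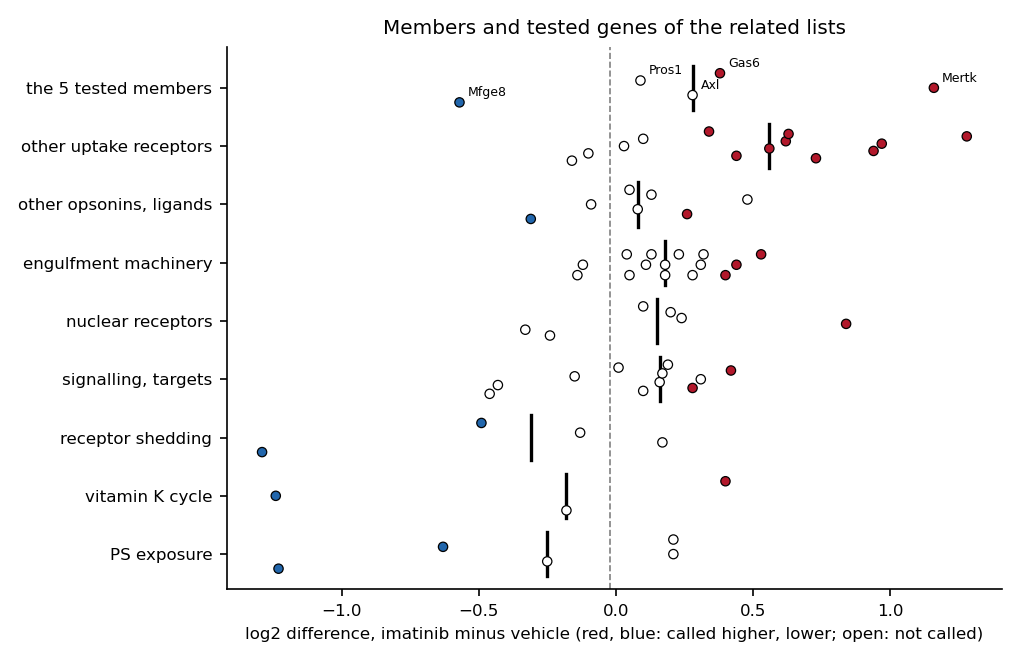
Log2 difference, imatinib minus vehicle (horizontal axis), of the tested members and of the tested genes of 8 related lists, 1 point per gene. Red and blue points passed as higher and lower, open points did not pass, black bars are list medians and the dashed line is the median of all 8145 tested genes (-0.02). Mertk stands near Cd93 and Cd300a of the other uptake receptors, and Mfge8 apart from the other members.

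Markers of other cell types moved on the same arrays, and their part in the members' values was not tested. All 13 epithelial markers were lower with imatinib, against 8.73% lower over all genes, with a median log2 difference of -2.18. Their summed signal was 7130.4 and 7066 on the imatinib arrays against 33745.8 and 33991.1 on the vehicle arrays. Epcam gave 544.6 and 569.5 with imatinib and 3058 and 3166 with vehicle, so that epithelial RNA was measured in both groups. Of 12 tested fibroblast markers 7 were lower (58.3%, against 8.73% lower over all genes) and the other 5 did not pass (median -0.95). Their summed signal was 4177.7 and 4568.1 with imatinib against 8199 and 8876.1 with vehicle. The same holds for Acta2, 1 of 4 tested smooth muscle genes (-0.82). Epithelium and stroma are known sources of Mfge8, and fibroblasts of Gas6, so the lower Mfge8 moved in the direction of these markers and the higher Gas6 against them.

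Endothelium and platelets are further known sources of Pros1 and Gas6. Of 6 tested endothelial genes none passed (limma, and 0 at an unadjusted p under 0.05), with a median of -0.02 (0.14 with array medians set equal). On the macrophage-identity scale, where 57.5% of all genes were lower, the median was -0.44 and 3 were lower. Their summed signal was 1371.7 and 1356.7 on the imatinib arrays against 1545.9 and 1455.4 on the vehicle arrays. Defining genes ranged widely in signal: Kdr gave 345.8 and 347.4 with imatinib and 416.4 and 273.5 with vehicle, whereas Tie1 stayed at 5.17 or lower on each array. Of the platelet and erythroid genes, Pf4, which macrophages also express, was higher (0.85), the platelet gene Itga2b did not pass (191.7 and 155.4 on the imatinib arrays against 262.7 and 204.2 on the vehicle arrays, -0.37, adjusted p = 0.266), and Gp9 and Ppbp were below the filter.

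Among leukocytes other than macrophages, 4 of 6 monocyte genes were higher (66.7%, against 6.8% higher over all genes), led by F13a1 at 0.93. The median was 0.45, or 0.02 on the macrophage-identity scale, where 2 were higher and 2 lower. Ccr2 (-0.21) and Plac8 (-0.27) lay in the other direction and did not pass. After quantile normalization Plac8 passed as lower (-0.3, limma adjusted p = 0.0375). Of the dendritic cell genes Cd209a (1.48) and Kmo (0.69) were higher. Itgax (0.06), Irf8 (0.13), Dpp4 (0.28), Batf3 (0.45), Ccr7 (0.69) and Xcr1 did not pass, and Zbtb46 lay below the filter. Of the neutrophil genes Csf3r (0.70) was higher, and S100a9 (0.27) and Ngp (-0.14) did not pass. Cxcr2, Mpo, Elane and Ltf lay below the filter. Flt3 (1.14) and S100a8 (0.91) were above the filter through the imatinib arrays only. Their calls are not read as results, and no count or median is read from these 2 lists. With a pseudocount of 1 S100a8 did not pass (1.26, adjusted p = 0.0547). Of 8 NK and cytotoxic genes 3 were higher (37.5%, against 6.8% higher over all genes). Their median was 0.33, or -0.10 on the macrophage-identity scale. Of 6 B and plasma cell genes 2 were higher and 1 lower (50% passing, against 15.5% over all genes). Their median was 0.06, or -0.37 on that scale. Of 9 T cell genes none passed (limma, and 0 at an unadjusted p under 0.05), with a median of -0.09, or 0.07 with array medians set equal. Among markers of GIST cells and interstitial Cajal cells, Kit was lower (-0.64), which is 20% of the tested genes, against 8.73% lower over all genes. The other 4 tested genes did not pass (list median -0.09, or 0.07 with array medians set equal). On the macrophage-identity scale, where 57.5% of all genes were lower, the T cell median was -0.52 with 3 lower. The median of the GIST and Cajal cell markers was -0.52 on it, with 2 lower.

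**Figure D4:**
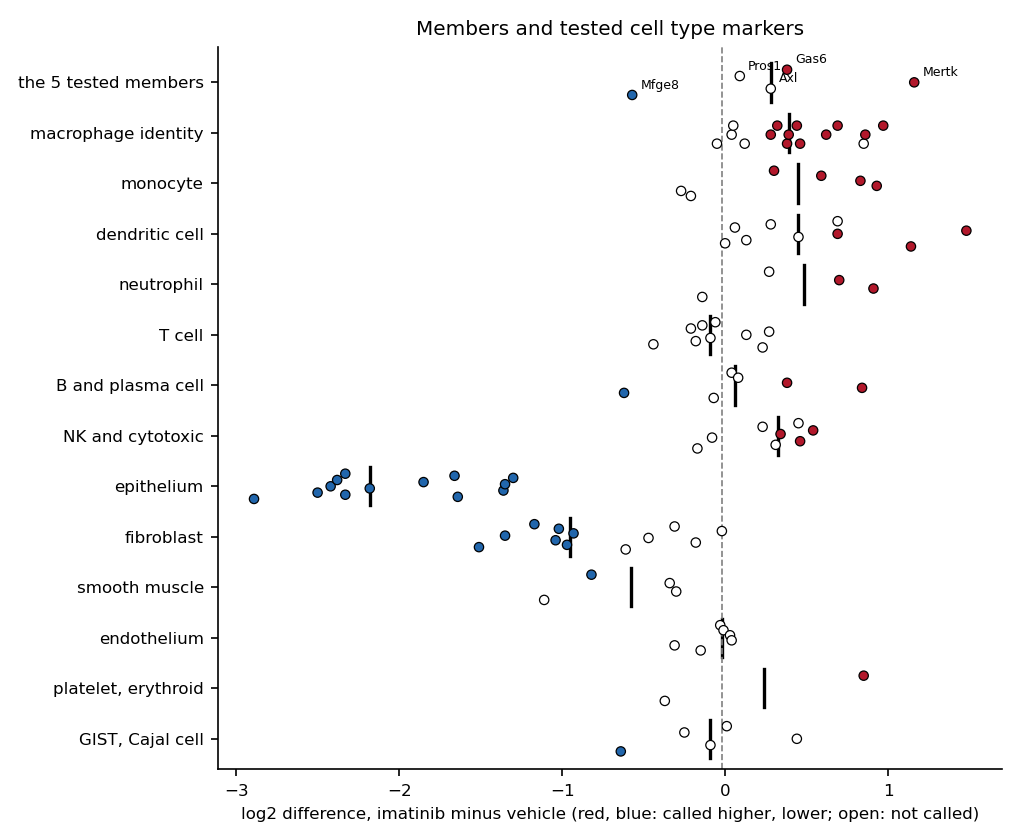
Log2 difference, imatinib minus vehicle (horizontal axis), of the tested members and of the tested markers of 13 cell types, 1 point per gene, with the same symbols as for the related lists. Mertk lies at 1.16, beside Itgam at 0.97 as the nearest macrophage identity gene, and Mfge8 lies between the endothelial and the epithelial markers. Itgam was above the filter through the imatinib arrays only.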

How the data were processed

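The authors deposited microarray signal intensities on a linear scale. Per the submitters' processing notes they used Affymetrix Expression Console with MAS5, of unstated version and settings. The 2% trimmed mean was 500.3 on each of the 4 arrays, so a change in abundant transcripts shifts all others. Of 22690 probe sets, 64 controls were left out. Platform symbols were checked by gene ID against RefSeq (GRCm38.p6): 20351 of 20380 matched and 0 changed.

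Signals were transformed as log2(signal + 32). Each gene was represented by its brightest probe set and tested if its mean log2 value was at or above the 40th percentile. Groups were compared with limma (lmFit, eBayes with trend, two-sided) and Benjamini-Hochberg adjustment over all 8145 genes; probe sets were also fitted on their own. Residual and prior degrees of freedom were 2 and 8.71. On simulated arrays of 8145 genes the procedure found 65% of 100 genes shifted by a log2 value of 0.5 and 94% of 100 shifted by 1, with 3 unchanged genes called. The simulated noise was normal with a spread set by mean signal alone, and fewer genes were shifted than passed in the data. These shares may therefore not hold for the real arrays. Precision is limited by the number of arrays.

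The members and the 8 related and 13 marker lists (229 entries, 199 of them on the array) were chosen with earlier results of these data known. Named were all members, up to 4 passing genes per related list and up to 3 per marker list, and the 3 nearest patterns. Itgb5, Itgav, Itgb3, Nr1h3, Pparg, Rxra, Ifnar1, Socs1, Adam17, Ggcx, Tub, Tulp1, Csf1r, Ctss, Kdr, Tie1, Itga2b, Gp9 and Ppbp were added after their values were seen. So were Ccr2, Plac8, Itgax, Irf8, Dpp4, Batf3, Ccr7, Xcr1, Zbtb46, S100a9, Ngp, Cxcr2, Mpo, Elane and Ltf. The 15 alternatives were 2 pseudocounts (1 and 128), a filter at the 60th percentile and none, equal array medians, quantile normalization, an equal mean of the macrophage identity list, no variance trend, a robust prior, the replicate number as a block, a gene's probe sets averaged, and each array left out in turn. Tools were limma 3.58.1 and statmod 1.5.0 in R 4.3.3, and numpy 2.4.6, pandas 2.3.3 and matplotlib 3.10.9 in Python 3.11.15.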

Additional observations from a re-analysis of the deposited data

How the results depend on the processing

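The call for Mertk held under all 15 alternatives (log2 difference 0.74 to 1.32). The other members depended on scaling or on single arrays, and the cause was not tested. With the macrophage identity list set equal, which lowers every difference by 0.43, Axl was at -0.15, Gas6 at -0.05 and Pros1 at -0.33, and the counts were 113 genes higher and 4682 lower (176 and 7107 probe sets). With equal array medians Axl was at 0.44 and passed, Mfge8 at -0.41 and did not, and 1050 genes and 1601 probe sets were higher. The median of the tested genes was -0.45 on the first scale, 0.14 on the second and -0.02 as deposited. The mean of the 2 Axl probe sets was -0.01. Gas6 did not pass with no filter (0.38, adjusted p = 0.058) or with no variance trend (0.38, adjusted p = 0.134). With no filter 356 genes were higher, and 434 probe sets were higher and 635 lower; with no variance trend 199 genes were higher, and 260 probe sets were higher and 626 lower. As deposited, 554 genes were higher and 711 lower, and 853 and 998 probe sets. Leaving out 1 array, which leaves a lone array assumed to vary like the other group, gave 291 to 476 genes higher and 506 to 664 lower, 303 to 673 probe sets higher and 587 to 832 lower, and log2 differences of 1.12 to 1.20 for Mertk, 0.18 to 0.38 for Axl, -0.55 to 0.15 for Tyro3, 0.28 to 0.48 for Gas6, 0.05 to 0.14 for Pros1 and -0.65 to -0.50 for Mfge8. The replicate block changed no member's call (Mertk 1.16, adjusted p = 2.16e-05; Gas6 0.38, Mfge8 -0.57) and called 430 genes higher and 635 lower. Same-numbered arrays had deviations correlated at -0.127 across genes, so they share a number only. Dim signals limit what Tyro3 and the second Axl probe set can show.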
